A study of Rattus norvegicus with 18 samples.

Results

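The insulin-like growth factor (IGF) system was followed in rat ovarian follicles around ovulation as a set of 10 genes: the ligands Igf1 and Igf2, the receptors Igf1r and Igf2r, the binding proteins Igfbp2, Igfbp3, Igfbp4, Igfbp5 and Igfbp6, and the binding protein protease Pappa. The members were the probe sets whose only gene symbol in the array's annotation was 1 of these names. They came to 22 of 31099 probe sets, for 9 of the 10 genes, and no probe set was assigned to Pappa by this rule. The array was hybridized once for each of 18 samples, in 6 groups of 3. All rats were Crl:CD(SD) rats, and the labels give no age. RU UF were unruptured follicles at 10:00 of estrus from rats given RU486, which blocks the receptors of progesterone and of glucocorticoids. The single oral dose was 100 mg/kg, at 10:00 of proestrus. IM UF were unruptured follicles of the same time from rats given indomethacin, which blocks prostaglandin synthesis by the cyclooxygenases. Its single oral dose was 4 mg/kg, at 16:00 of proestrus. Control PoF were the post-ovulatory follicles of untreated rats at that time. RU PeF, IM PeF and control PeF were the peri-ovulatory follicles of rats treated in the same 3 ways at 22:00 of proestrus. Each sample was cut by laser microdissection from frozen sections 8 micrometres thick, and the labels state 15 follicles in each phase. Treatment and rupture cannot be told apart at estrus, since treated follicles had not ruptured and control follicles had. RU486 was also given 6 hours before indomethacin. The study names 3 animals per group and time but does not tie a sample to an animal, so p-values measure the spread between samples.

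IGF-I binds the receptor tyrosine kinase encoded by Igf1r and signals through adaptor proteins to the kinases of the PI3K and AKT pathway. In the rodent ovary IGF-I is made by granulosa cells and increases their response to follicle-stimulating hormone. Igf2r, the mannose 6-phosphate receptor, carries lysosomal enzymes and takes IGF-II into the cell for degradation. The binding proteins hold the IGFs outside the cell and set how much reaches the receptor, and pappalysins such as Pappa release the IGFs by cutting certain binding proteins.

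The 4 members called by their brightest probe set in at least 1 comparison of groups, Igf1, Igf2r, Igfbp2 and Igfbp6, are shown by their promoters, as a view of what the called genes share in sequence. Each is the RefSeq window of GRCr8 from 250 bases before to 50 bases after the annotated start, 5′ to 3′ on the gene's strand, which was the plus strand for all 4. Capitals mark the hexamers searched on both strands: CACGTG (an E-box), GGGCGG (a GC box) and AGAACA or its complement TGTTCT (a hexamer bound by steroid receptors). None of the capitalised matches overlapped another. The windows were chr7:24172282-24172581 for Igf1, chr1:50526628-50526927 for Igf2r, chr9:81864561-81864860 for Igfbp2 and chr7:135154669-135154968 for Igfbp6.
Igf1: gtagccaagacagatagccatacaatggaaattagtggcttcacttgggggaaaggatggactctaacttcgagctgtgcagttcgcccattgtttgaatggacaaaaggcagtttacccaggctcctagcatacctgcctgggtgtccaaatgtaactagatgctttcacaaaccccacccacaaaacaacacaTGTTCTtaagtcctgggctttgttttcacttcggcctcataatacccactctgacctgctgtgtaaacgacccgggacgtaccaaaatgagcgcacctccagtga
Igf2r: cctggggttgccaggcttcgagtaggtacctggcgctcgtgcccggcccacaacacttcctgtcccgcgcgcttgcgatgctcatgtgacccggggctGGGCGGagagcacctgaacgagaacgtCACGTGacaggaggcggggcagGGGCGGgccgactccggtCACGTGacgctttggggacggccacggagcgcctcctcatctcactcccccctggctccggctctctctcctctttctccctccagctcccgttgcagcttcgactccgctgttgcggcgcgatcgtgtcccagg
Igfbp2: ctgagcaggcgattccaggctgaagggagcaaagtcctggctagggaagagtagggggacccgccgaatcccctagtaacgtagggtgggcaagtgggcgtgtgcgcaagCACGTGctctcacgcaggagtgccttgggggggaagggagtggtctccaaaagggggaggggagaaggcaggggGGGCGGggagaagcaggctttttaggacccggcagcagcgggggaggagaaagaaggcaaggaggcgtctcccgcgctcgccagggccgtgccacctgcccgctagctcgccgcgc
Igfbp6: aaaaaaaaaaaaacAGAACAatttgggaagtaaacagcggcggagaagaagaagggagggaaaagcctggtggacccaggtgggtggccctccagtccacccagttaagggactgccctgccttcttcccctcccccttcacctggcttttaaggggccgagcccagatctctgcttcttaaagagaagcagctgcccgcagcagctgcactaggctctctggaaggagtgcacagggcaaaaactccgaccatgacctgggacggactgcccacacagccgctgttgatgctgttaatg

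The windows fell into 2 kinds. Those of Igf2r and Igfbp2 were 68% and 66.7% G and C with 30 and 20 CpG, and those of Igf1 and Igfbp6 were 48.3% and 55.3% with 7 CpG each, while the median over all 33469 promoters of the table was 51.7% and 7 CpG. CACGTG stood in the windows of Igf2r, with 2 matches, and Igfbp2, and 6.42% of all promoters held it. GGGCGG was found in the same windows and in 33.1% of all promoters. The hexamer AGAACA or TGTTCT stood once in the Igf1 window, 55 bases before the start, and once in that of Igfbp6, 236 bases before it, and in 20.7% of all promoters. TGACGTCA, present in 1.83% of all promoters, and TATAAA, present in 14.2%, matched none of the 4 windows. Igf2r, which was higher at estrus, and Igfbp2, which was lower, thus held the same 2 motifs. Among the other members, the Igf1r window also held both of them, and that of Igf2 held GGGCGG. These matches are a description of the windows alone.

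Signals were compared after quantile normalization, on the log2 scale with a pseudocount of 2.79, and a probe set was called at an adjusted p under 0.05 in limma over all 18155 probe sets tested. A gene was counted by its representative probe set, the brightest of those tested, and the others are named in the order of their mean signal. Of the 22 member probe sets 15 were tested, for 8 genes, and 13 were above the unspiked control probe sets on all 18 arrays. As deposited, the medians of the arrays ran between 4.4 and 27.4, and control PeF replicate 3 was the dimmest, with 45.7% of its probe sets above background against up to 75.3% on other arrays. Pairs of control PeF arrays correlated at 0.869 to 0.963, and the pairs within the other groups at 0.929 to 0.976. Granulosa markers were well measured in each group: the summed signal of 11 of 12 listed markers lay between 16489 and 28283 over all samples, and none was at background in all 3 arrays of a group. Of 5 oocyte markers with a probe set, Bmp15 was at background on all arrays of each group, and in RU PeF it was the only one. The summed signal of the 5 was 69.6 to 171 in RU PeF, 23.0 to 146 in IM PeF and 14.3 to 91.4 in control PeF. At estrus it was 29.6 to 44.7 in RU UF, 16.8 to 33.1 in IM UF and 14.1 to 25.5 in control PoF. Each sample was a mixture of cells, and fewer cells of a type and less RNA per cell cannot be told apart.

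Igf1 was the member with the largest difference between groups in the RU486 follicles, high before and low after the time of ovulation. Its representative probe set had signals of 134.5, 74.5 and 106.5 in RU UF, of 268, 202 and 155 in IM UF and of 252, 173 and 236 in control PoF. At 22:00 the signals were 839, 899 and 654 in RU PeF, 337, 355 and 483 in IM PeF and 332, 416 and 322 in control PeF. All RU PeF samples lay above every other sample, and all RU UF samples lay below every other one. Its group means ranked from RU PeF (797 ± 128, SD, n = 3) through IM PeF (392 ± 79.3), the PeF of untreated rats (357 ± 51.8), their PoF (220.3 ± 41.4) and IM UF (208 ± 56.9) to RU UF (105 ± 30.1), and neighbours within each time other than the RU486 groups did not differ beyond their spread.

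At estrus Igf1 was 2.10-fold lower in RU UF than in control PoF, a log2 difference of -1.07 ± 0.23 (SE, limma, adjusted p = 0.00722). At 22:00 it was 2.22-fold higher in RU PeF than in control PeF, by 1.15 ± 0.23 (SE, limma, adjusted p = 0.00583). The effect of RU486 at 10:00 minus its effect at 22:00 was -2.22 ± 0.33 (SE, limma, adjusted p = 0.00109), a test of the opposed differences against each other. Against indomethacin, Igf1 was 1.96-fold lower in RU UF than in IM UF (limma adjusted p = 0.0163) and 2.04-fold higher in RU PeF than in IM PeF (limma adjusted p = 0.0129). The first of these calls was lost without IM UF replicate 1 or 2 or RU UF replicate 2 (adjusted p of 0.0529 to 0.0986) and with median scaling (0.0708), and the second without IM PeF replicate 2 or RU PeF replicate 1 or 2 (0.0501 to 0.0749). Without RU UF replicate 2 the estrus difference from control PoF was -0.85 with an adjusted p of 0.0525, just outside the threshold. Without the dim control PeF replicate 3 the 22:00 difference was 1.08 with an adjusted p of 0.0146.

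The other Igf1 probe sets had the same signs under RU486. The second Igf1 probe set had signals of 54.5, 25.6 and 30.8 in RU UF, against 111, 69.8 and 94.2 in control PoF, and was called lower (-1.29 ± 0.28, limma adjusted p = 0.00723). At 22:00 it had 126, 144 and 93.9 in RU PeF, against 88.2, 66.0 and 101.7 in control PeF, an overlap, and the difference of 0.50 was not called (limma adjusted p = 0.297). Its difference between the effects at the 2 times was -1.79 ± 0.40 (SE, limma adjusted p = 0.0169). The dimmest Igf1 probe set was at or below background on all 3 RU UF arrays, so its fold difference is given as a bound by group means. By this probe set Igf1 was at least 3.01-fold lower in RU UF than in control PoF and at least 3.99-fold lower than in RU PeF. The bound sets the mean of the brighter group against the background level of the RU UF arrays and leaves out the spread between samples. The limma differences were -1.72 (95% interval -2.75 to -0.70, adjusted p = 0.0345) and -2.13 (-3.15 to -1.10, adjusted p = 0.0021). The call against control PoF at this probe set did not hold without any 1 of the 6 samples, with adjusted p between 0.0724 and 0.117. At 22:00 its RU PeF signals were 35.1, 40.3 and 34.7, against 21.6, 22.7 and 1.40 in control PeF, and the difference of 1.52 (limma adjusted p = 0.0658) was 0.66 without the dim control PeF replicate 3.

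Between 22:00 and 10:00 Igf1 was lower at estrus in all 3 treatments by its representative probe set, but its probe sets did not agree outside the RU486 follicles. In the RU486 follicles the representative was 7.55-fold lower at estrus (-2.92 ± 0.23, SE, limma adjusted p = 5.51e-08), and the second Igf1 probe set was also called lower (-1.69, limma adjusted p = 0.000129). In the indomethacin follicles the representative was called lower (-0.92, limma adjusted p = 0.00527), while the second Igf1 probe set was called higher, by 0.87 (limma adjusted p = 0.0236), a call lost without IM PeF replicate 1 (0.70, adjusted p = 0.111) or IM UF replicate 1 (0.69, adjusted p = 0.109). In control follicles the representative was called lower (-0.70, limma adjusted p = 0.0239), while the second Igf1 probe set differed by 0.10 and the dimmest Igf1 probe set by 1.12, neither of them called. The control and indomethacin time courses of Igf1 therefore have no settled direction here, and the control call was also lost without control PoF replicate 2 (adjusted p = 0.118) or control PeF replicate 2 (adjusted p = 0.0867).

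**Figure D1:**
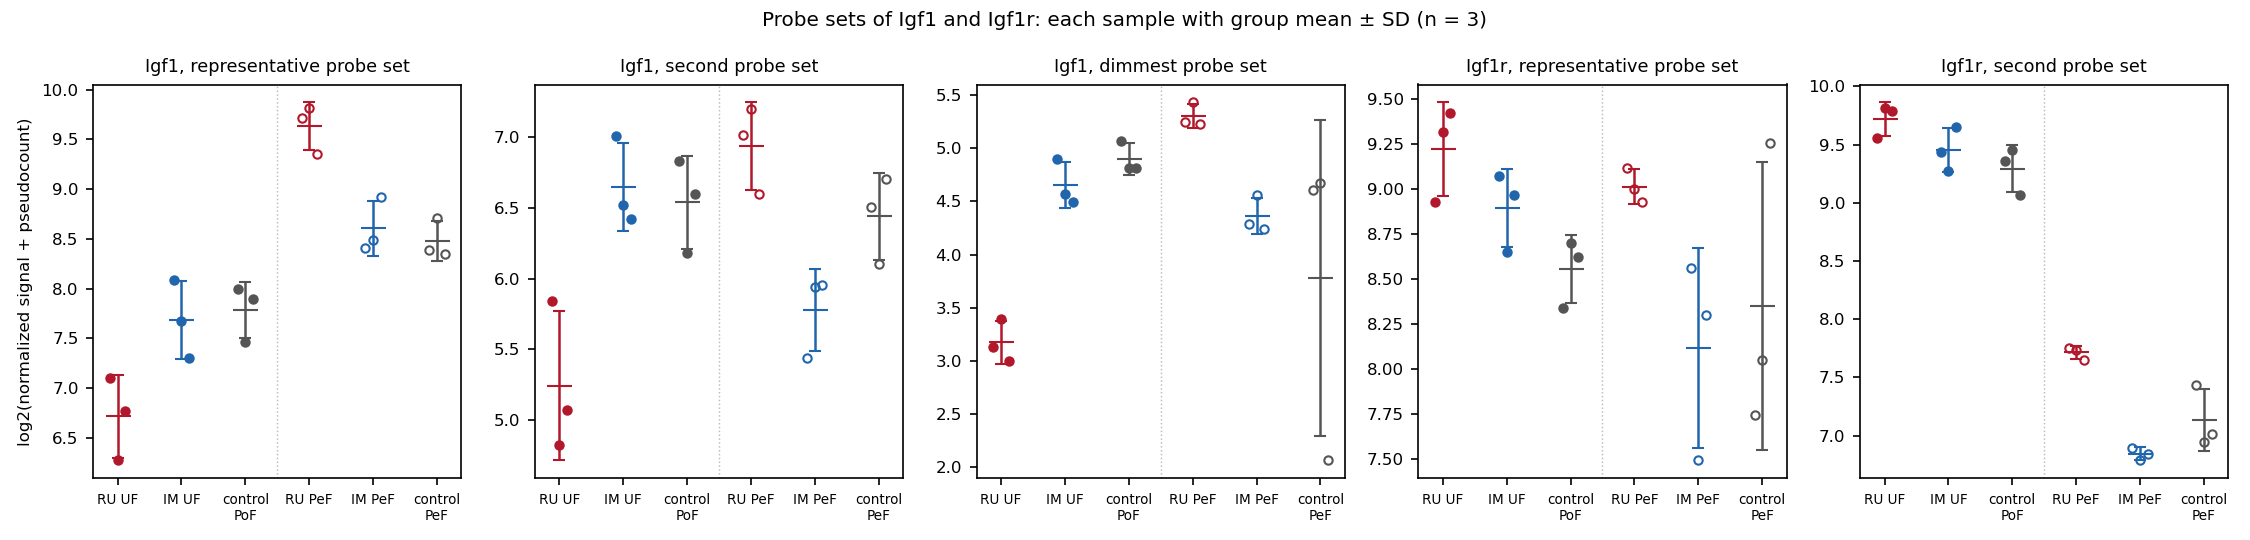
Level of each probe set of Igf1 (3 panels) and Igf1r (2 panels) by group, as log2 of the normalized signal plus 2.79. Points are samples, filled at 10:00 of estrus and open at 22:00 of proestrus, and bars are the mean ± SD of 3 samples. All 3 Igf1 panels have RU UF lowest by mean, and RU PeF highest, while the order of the untreated and indomethacin groups differs between panels. The panel of the second Igf1r probe set has all estrus samples above all proestrus samples, unlike that of the representative.

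Igf2, the other ligand, was at or near background. Its 4 probe sets had normalized signals between 1 and 31.5 over the 18 arrays. Of these, 2 were above background on no array, and the others on 12 and 6 of the 18 arrays. None passed the filter for low signals, so Igf2 was not tested.

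Igf2r was higher at estrus in all 3 treatments, and highest in the unruptured follicles of RU486. Its representative probe set had signals of 1140, 1199 and 1205 in RU UF, 644, 475 and 551 in IM UF and 556, 525 and 647 in control PoF. The signals at 22:00 were 187, 175 and 147 in RU PeF, 140, 260 and 188 in IM PeF and 198, 166 and 198 in control PeF. No estrus sample overlapped a proestrus sample, and the RU UF samples lay above all others. The PeF means of 170, 196 and 188 and the means of 557 in IM UF and 576 in control PoF did not differ beyond their spread.

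The log2 difference of Igf2r between estrus and proestrus was 2.79 ± 0.18 in RU486 follicles, 1.52 ± 0.18 in indomethacin follicles and 1.60 ± 0.18 in control follicles, and all 3 were called (SE, limma, adjusted p = 7.63e-09, 5.48e-06 and 2.99e-06). In RU UF Igf2r was 2.05-fold higher than in control PoF (limma adjusted p = 0.00131) and 2.13-fold higher than in IM UF (limma adjusted p = 0.00123). At 22:00 it differed between RU PeF and control PeF by -0.15, with a 95% interval from -0.53 to 0.24. The effect of RU486 at 10:00 minus that at 22:00 was 1.18 ± 0.26 (SE, limma, adjusted p = 0.0143). The second probe set had 618, 694 and 652 in RU UF, against 311, 334 and 329 in control PoF, and made the same calls. Its difference between the 2 effects was 0.87 (limma adjusted p = 0.0452), a call that was lost without any 1 of 10 of the 12 samples and under 5 other settings. The corresponding call at the representative probe set held without each of the 12 samples.

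The probe sets of Igf1r had the same sign in each comparison of groups, but differed in the size of the change between the times. By the second Igf1r probe set it had 749, 900 and 879 in RU UF, 688, 616 and 799 in IM UF and 654, 697 and 534 in control PoF. The signals at 22:00 were 213, 210 and 199 in RU PeF, 116.5, 108 and 112 in IM PeF and 170, 121 and 127 in control PeF. Each treatment was thus higher at estrus with no overlap, by 2.0 in RU486, 2.61 in indomethacin and 2.16 in control follicles (log2, each ± 0.15 SE, limma adjusted p = 2.88e-08, 2.72e-09 and 1.61e-08). RU PeF was also 1.5-fold higher than control PeF (limma adjusted p = 0.0245) and 1.83-fold higher than IM PeF (limma adjusted p = 0.00155). The first of these was lost without any 1 of 5 of the 6 samples, with adjusted p between 0.0596 and 0.0788. It was also lost with only the groups compared (limma adjusted p = 0.187). With median scaling both calls were lost (limma adjusted p = 0.0513 and 0.0551).

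The brighter Igf1r probe set, its representative, was called in none of the 9 comparisons of groups. Its difference between estrus and proestrus was 0.21 in RU486, 0.78 in indomethacin and 0.20 in control follicles. The indomethacin samples of the 2 times were apart (limma adjusted p = 0.0567), and that difference was called under 4 of 9 other settings. It had 484, 635 and 683 in RU UF, 535, 399 and 497 in IM UF and 321, 413 and 392 in control PoF. In RU PeF it had 552, 510 and 484, in IM PeF 375, 177 and 312, and in control PeF 211, 262.5 and 608.5. The highest of the control PeF values came from the dim replicate 3. Without that sample Igf1r by this probe set was higher in control PoF than in control PeF by 0.66 (limma adjusted p = 0.0423) and in RU PeF than in control PeF by 1.12 (limma adjusted p = 0.00767), against 0.20 and 0.66 with it.

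Igfbp2, a binding protein that mostly restrains IGF action, was lower at estrus in each treatment. Its probe set had 170, 99.9 and 146 in RU UF, 218, 213 and 129 in IM UF and 104, 118 and 196 in control PoF. The signals at 22:00 were 315, 479 and 365 in RU PeF, 577, 543 and 558 in IM PeF and 559, 491 and 580.5 in control PeF. No estrus sample overlapped a proestrus sample. The log2 differences between estrus and proestrus were -1.47 in RU486, -1.61 in indomethacin and -1.99 in control follicles (each ± 0.24 or 0.25 SE, limma adjusted p = 0.000132, 7.27e-05 and 7.01e-06). At estrus Igfbp2 differed between RU UF and control PoF by 0.01, with a 95% interval from -0.50 to 0.53. At 22:00 RU PeF differed from control PeF by -0.51 (95% interval -1.02 to 0.01, limma adjusted p = 0.218). Igfbp5 is the neighbouring gene of Igfbp2 on chromosome 9, and it was not called in any comparison.

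Igfbp3, which carries IGFs in a complex with the acid-labile subunit, was dim on these arrays. By the second Igfbp3 probe set it had 12.5, 11.8 and 7.03 in RU UF, below all samples of IM UF (29.6, 29.9 and 30.4), control PoF (25.1, 24.7 and 32.2) and RU PeF (25.3, 60.6 and 34.0). It was called lower in RU UF than in control PoF (-1.21 ± 0.30, SE, limma adjusted p = 0.0165), than in IM UF (-1.33, limma adjusted p = 0.0105) and than in RU PeF (-1.63, limma adjusted p = 3e-04). The first was lost without RU UF replicate 3 (adjusted p = 0.084) or control PoF replicate 3 (adjusted p = 0.0769), and the second without RU UF replicate 3 (adjusted p = 0.058). The representative probe set had 12.6, 18 and 16.3 in RU UF, against 35.0, 32.9 and 54.1 in control PoF, with the same sign (-1.22) and an adjusted p of 0.329 in limma. Its control PeF values were 58.3, 37.0 and 1.40. Without the 3 dimmest arrays, which include the lowest of them, the limma adjusted p was 0.0139. None of these 3 arrays was of RU UF or control PoF. Counting this fit, the difference was called under 3 of 9 other settings, and in 0 of the 6 fits that left out 1 sample.

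Igfbp6, which prefers IGF-II, had its lowest group mean in the RU486 follicles of 22:00 by its representative probe set. The representative probe set had 59.0, 57.5 and 34.0 in RU PeF, against 106, 141 and 117 in IM PeF and 127, 136 and 176 in control PeF. All RU PeF samples lay below all samples of the other 2 groups. The difference of RU PeF was -1.52 ± 0.23 from control PeF (SE, limma adjusted p = 0.000728) and -1.25 from IM PeF (limma adjusted p = 0.00285), and the second probe set had the same signs, uncalled (-0.95, adjusted p = 0.0981, and -0.73, adjusted p = 0.283, limma). At estrus the signals were 71.5, 58.4 and 55.7 in RU UF, against 71.6, 110 and 89.1 in control PoF, a difference of -0.51 (limma adjusted p = 0.215). RU UF overlapped RU PeF, and the 2 groups differed by 0.32 (limma adjusted p = 0.303), or by -0.09 at the second probe set (limma adjusted p = 0.869). Igfbp6 was also called lower in control PoF than in control PeF (-0.69, limma adjusted p = 0.0263), a call that was lost without control PeF replicate 3 (adjusted p = 0.0927), control PoF replicate 1 (0.119) or control PoF replicate 3 (0.0637), with only the groups compared (0.0608) and with median scaling (-0.33, adjusted p = 0.35). The second probe set was not called there (adjusted p = 0.083).

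Stromal markers were lower in the same RU PeF samples. The summed signal of 8 stroma and fibroblast markers lay between 1957 and 2610 in RU PeF, against 3836 to 4905 in IM PeF and 5318 to 5784 in control PeF, and 6 of the 7 tested were called lower in RU PeF than in control PeF. One of them, Pdgfra, a receptor of stromal cells, fell by 2.09 on the log2 scale (limma adjusted p = 2.48e-05). Of 10 smooth muscle and pericyte markers 3 were called lower, with a summed signal of 245 to 275 in RU PeF, against 492 to 503 in control PeF. Of 8 endothelial markers 2 were called lower and 0 higher, with a summed signal of 785 to 981, against 1134 to 1288. Of 11 granulosa markers 1 was called higher and 2 lower, of 9 leukocyte markers 1 and 1, and of 6 theca markers 1 and 0. Over all probe sets 3.4% were called higher and 4.03% lower. No stroma marker was at background in RU PeF, and the part of any of these cell types in the Igfbp6 difference was not tested.

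Igfbp4, an inhibitory binding protein and a substrate of Pappa, and Igfbp5, which binds to extracellular matrix, passed the test in none of the 9 comparisons. Igfbp4 lay between 46.3 and 111 in all 18 samples, and its group means spanned only 1.29-fold. Igfbp5 had 135, 111 and 35.6 in RU UF, 124, 37.0 and 21.7 in IM UF and 56.5, 53.2 and 40.0 in control PoF. Its values at 22:00 were 57.8, 64.0 and 64.4 in RU PeF, 30.4, 42.1 and 27.8 in IM PeF and 54.5, 66.6 and 126 in control PeF. The unruptured groups each held 1 sample far from the other 2. The remaining 3 probe sets of Igfbp5 did not pass the filter, with signals of at most 8.25.

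**Figure D2:**
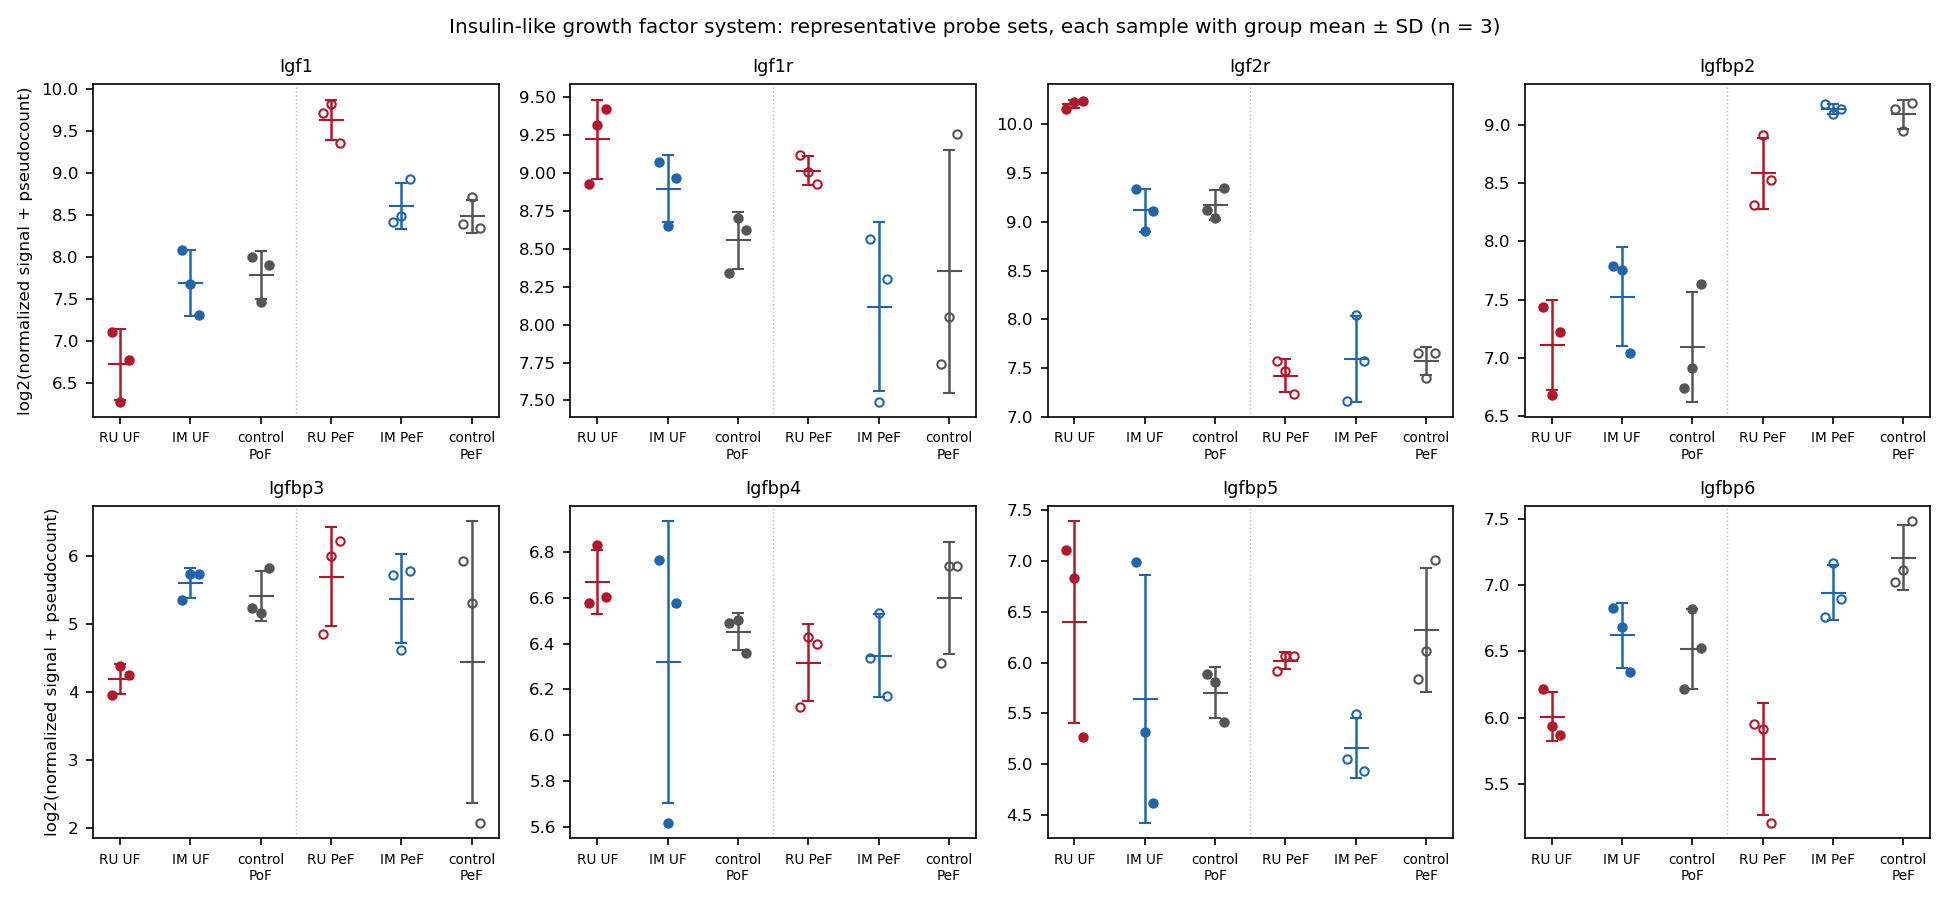
Representative probe sets of the 8 members tested, as log2 of the normalized signal plus 2.79, by group. Filled points are samples at 10:00 of estrus, open points samples at 22:00 of proestrus, and bars the mean ± SD of 3 samples. Each panel has its own axis. Igf2r stands highest in RU UF and Igf1 lowest there, and Igfbp2 separates the times. Igfbp6 has its lowest mean in RU PeF, where its samples overlap those of RU UF.

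The counts over the 8 members, by representative probe set, were close to the share of all probe sets called in each comparison of times. Control PoF against control PeF had 1 member higher (Igf2r) and 3 lower (Igf1, Igfbp2 and Igfbp6), where 39.6% of all probe sets were called, 21% higher and 18.5% lower. IM UF against IM PeF had 1 higher (Igf2r) and 2 lower (Igf1 and Igfbp2), at a background of 33.3%, 16.3% higher and 17% lower. RU UF against RU PeF had the same members called in the same directions, at 38.8%, 19% higher and 19.9% lower. The median log2 difference of the members was -0.38 in control, 0.10 in indomethacin and 0.26 in RU486 follicles, against 0.08, -0.0029 and -0.01 over the 10391 genes tested. In control PoF cell type markers moved in the same comparison: 4 of 7 stroma markers were called higher than in control PeF, and 4 of 6 theca markers lower. Of 10 smooth muscle markers 6 were called higher and 1 lower, and of 11 granulosa markers 4 higher and 4 lower. Among 8 endothelial markers 1 was called higher and 2 lower, and among 9 leukocyte markers 1 higher and 1 lower. Their part in the changes of the members was not tested.

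**Figure D3:**
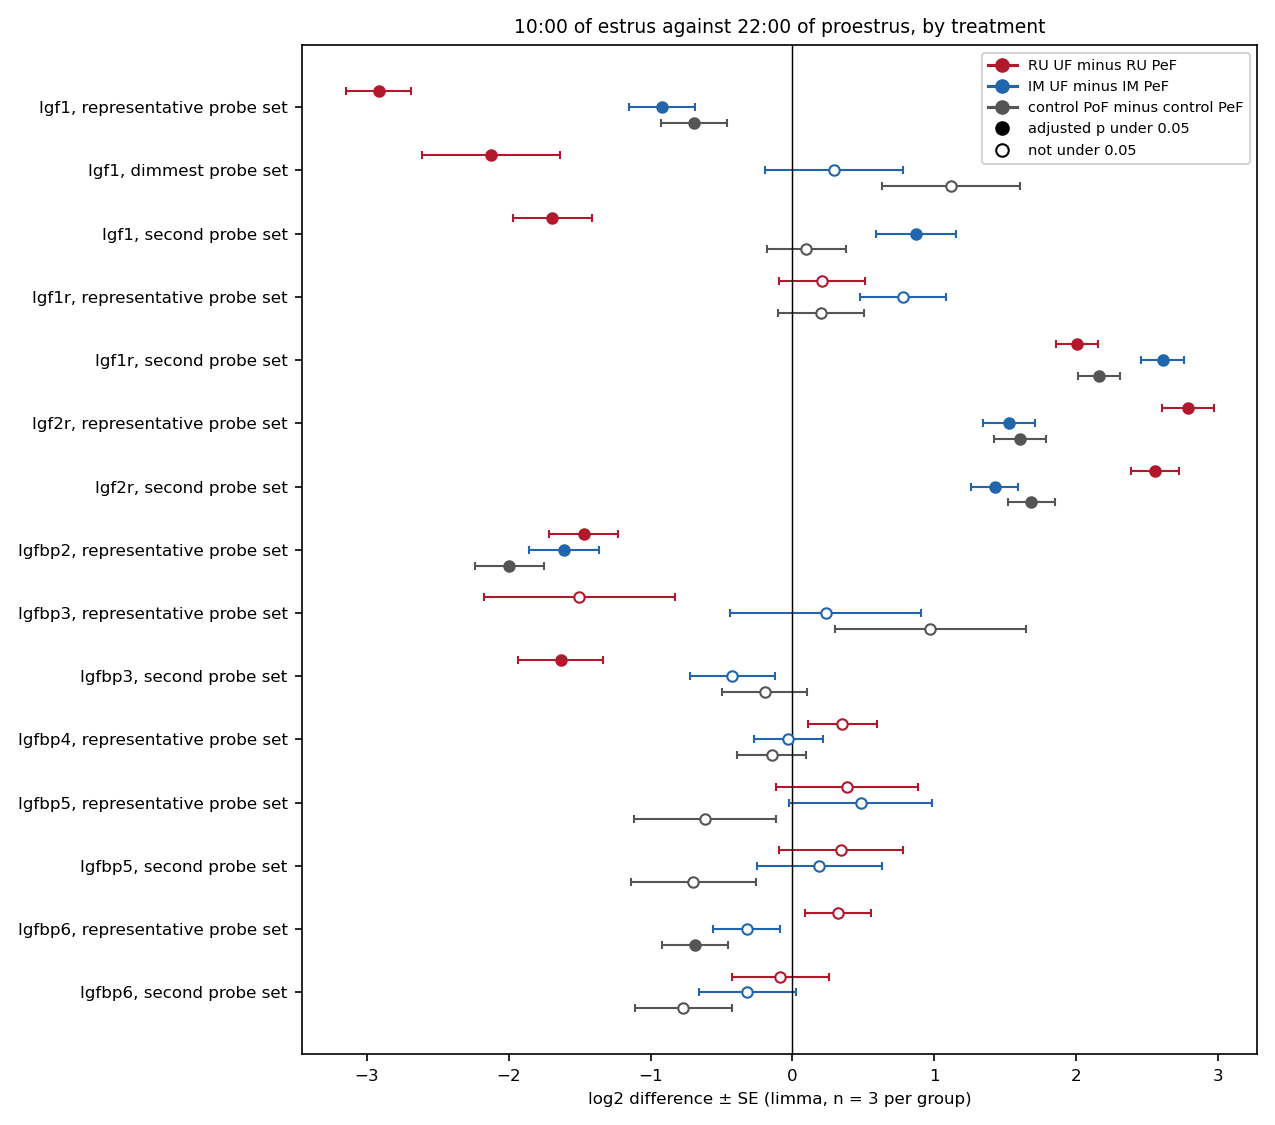
Difference between 10:00 of estrus and 22:00 of proestrus for the 15 member probe sets tested, on the log2 scale with the SE of limma, for RU486, indomethacin and untreated follicles (n = 3 per group). Filled points had an adjusted p under 0.05. Both probe sets of Igf2r and of Igf1r are right of 0 in all 3 treatments, and Igfbp2 is left of 0. The Igf1r representative was called in none of them. Igf1 at its second and dimmest probe sets is left of 0 only under RU486.

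Indomethacin gave no member call at either time. In IM PeF against control PeF 0 of 8 members were called, where 0% of all probe sets were, although 2074 probe sets had an unadjusted p under 0.05, 3 of them among the 15 of the members. These 3 were lower in IM PeF with the samples of the groups apart. Igfbp5 differed by -1.16 (95% interval -2.22 to -0.105, limma adjusted p = 0.411) and, at its second probe set, -0.96 (-1.89 to -0.037, 0.429). The second Igf1 probe set differed by -0.66 (-1.25 to -0.07, limma adjusted p = 0.408). In IM UF against control PoF 0 of 8 members were called, at a background of 0.033% and with 1265 probe sets at an unadjusted p under 0.05, none of them a member's. By representative probe set, the 95% intervals of the IM PeF difference ran from -0.36 to 0.61 for Igf1, -0.36 to 0.41 for Igf2r and -0.47 to 0.56 for Igfbp2. At estrus, the interval of the IM UF difference was -0.59 to 0.39 for Igf1, -0.43 to 0.33 for Igf2r and -0.09 to 0.95 for Igfbp2. Weighting the arrays by quality made 2 member calls in IM PeF, both lower, where 12.9% of all probe sets were then called, 6.4% higher and 6.53% lower.

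RU486 against control gave 1 member higher and 1 lower at each time. They were Igf1 and Igfbp6 in RU PeF, at a background of 7.42% (3.4% higher, 4.03% lower), and Igf2r and Igf1 in RU UF, at a background of 8.7% (4.22% higher, 4.47% lower). The difference of its effects between the times had 1 member higher (Igf2r) and 1 lower (Igf1), at a background of 4.02% (2.18% higher, 1.84% lower), while the same test for indomethacin had none (background 0%, 1641 probe sets at an unadjusted p under 0.05). The comparisons of the drugs had the same members: Igf1 higher and Igfbp6 lower in RU PeF than in IM PeF, at a background of 5.23% (1.98% higher, 3.25% lower), and Igf2r higher and Igf1 lower in RU UF than in IM UF, at 6.95% (3.49% higher, 3.45% lower). Those comparisons share their RU486 samples with the ones above. Markers moved here too: in RU UF against control PoF 3 of 6 theca markers and 3 of 11 granulosa markers were called higher, 1 theca and 1 of 7 stroma markers lower. The summed theca signal was 10553 to 12262 in RU UF, against 2522 to 3029 in control PoF, with Hhip at background in both. Star, the cholesterol carrier of steroid-making cells of several types and a listed theca marker, was 3.86-fold higher (limma adjusted p = 5.89e-07). The part of these cells in the Igf1 and Igf2r differences was not tested.

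**Figure D4:**
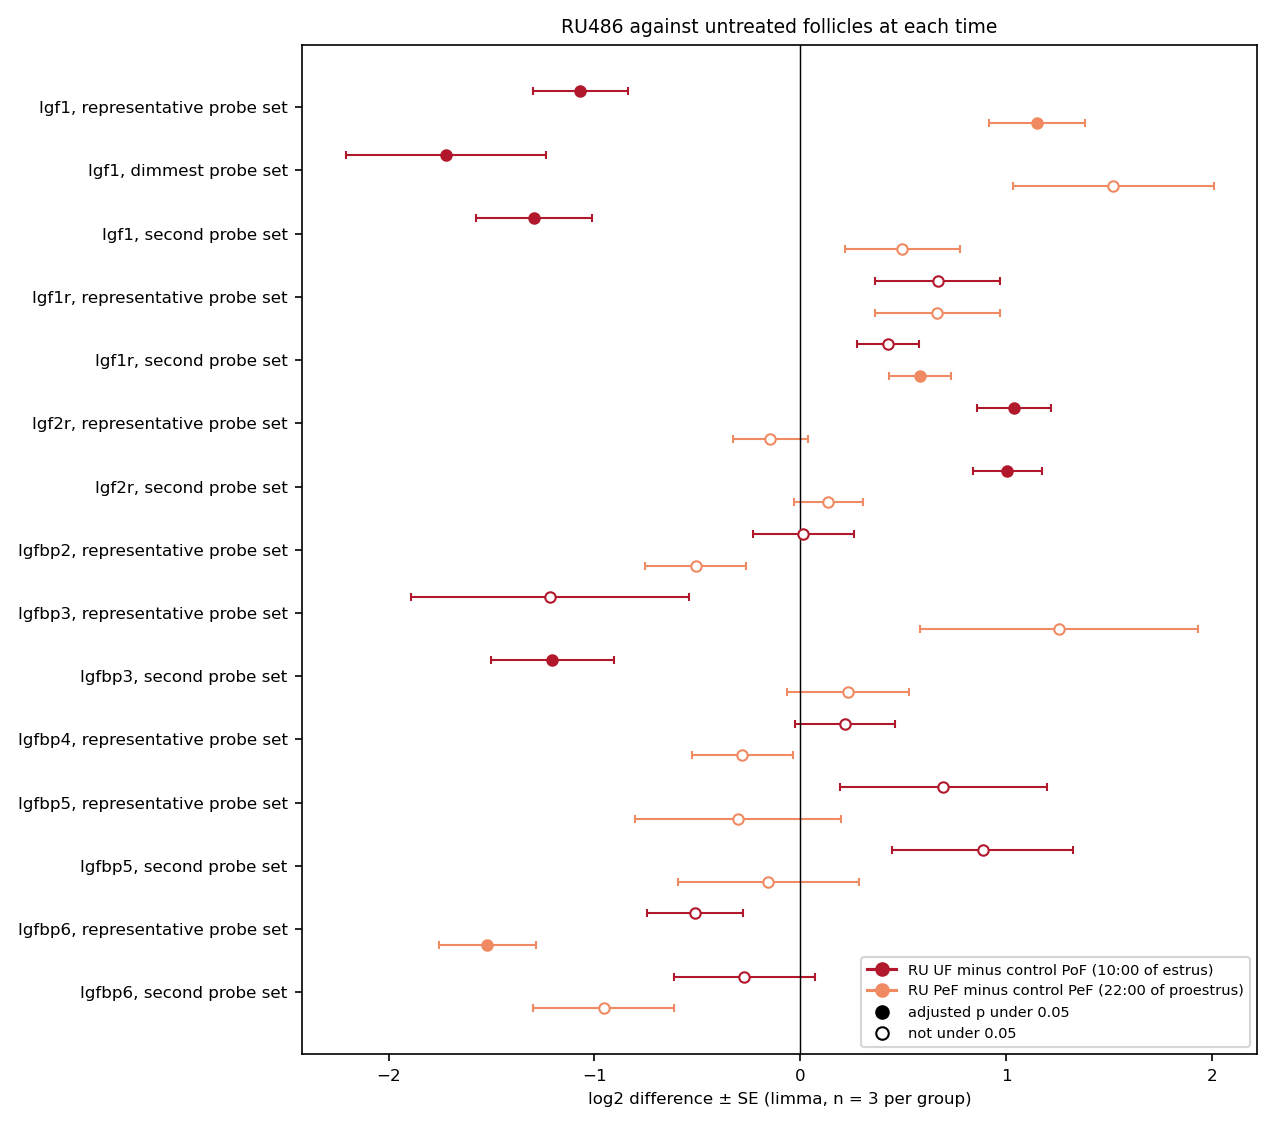
Difference of RU486 from untreated follicles for the 15 member probe sets tested, at 10:00 of estrus (RU UF minus control PoF) and at 22:00 of proestrus (RU PeF minus control PeF), on the log2 scale with the SE of limma (n = 3 per group). Filled points had an adjusted p under 0.05. The 3 Igf1 probe sets lie left of 0 at estrus and right of 0 at proestrus, and both Igf2r probe sets lie right of 0 at estrus and near 0 at proestrus.

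The scaling between arrays set some of these directions. In control PoF against control PeF, 30% of all probe sets were called higher and 0.777% lower with the deposited signals, and 24% and 8.17% with median scaling. The members called there were 1 higher and 0 lower with the deposited signals and 1 higher and 1 lower with median scaling. With the signals as deposited, the median of all probe sets differed by 1.28 between control PoF and control PeF and by -1.45 for the difference of the RU486 effects. On that scale Igf1 and Igfbp6 were higher in control PoF than in control PeF, by 0.78 and 0.76, and the difference of effects of Igf2r was -0.48 and -0.70 at its probe sets. Relative to the median probe set these 4 values were -0.50, -0.52, 0.97 and 0.75. Of the 43 calls of member probe sets, 4 turned sign with the deposited signals and 0 did so when set against the median of all probe sets. Scaling each array to a common median turned 0 signs, and its difference of effects for Igf2r was 0.68 (limma adjusted p = 0.288).

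The rest of the pathway was read from a list of 39 genes, of which 28 had a tested probe set. Control PoF had 3 of the 28 called higher and 9 lower than control PeF, where 21% and 18.5% of all probe sets were called, with a median of 0.05 against 0.08 over all genes tested. The balance turned with the scaling: 9 were called higher and 0 lower with the deposited signals, and 7 higher and 4 lower with median scaling. Over all probe sets 30% were called higher and 0.777% lower with the deposited signals, and 24% and 8.17% with median scaling. Foxo3, a transcription factor that AKT keeps out of the nucleus, had 458, 414 and 427 in control PoF, against 1184, 855 and 1004 in control PeF (-1.21 ± 0.14, SE, limma adjusted p = 2.67e-06). Grb2, an adaptor that links receptors to RAS, had 151, 177 and 139, against 377, 390 and 592 (-1.5 ± 0.20, limma adjusted p = 1.58e-05). Both groups of samples were apart for each of these genes. Pik3ca, the catalytic subunit of PI3K, differed by -0.88, Pdpk1, a kinase that activates AKT, by -0.46 and Akt2 by 0.72 (limma adjusted p = 4.51e-05, 0.000976 and 0.000658). With median scaling Pdpk1 was not called (-0.14, limma adjusted p = 0.631). The median of all probe sets was 1.28 with the deposited signals. On that scale Foxo3 was at 0.28, Grb2 at -0.03, Pik3ca at 0.60 and Pdpk1 at 0.99, none of them called. Akt2 was called there (2.21, limma adjusted p = 0.0211). Among these 5 genes, Foxo3, Grb2, Pdpk1 and Akt2 were called with the same sign in the RU486 and indomethacin follicles at estrus against proestrus.

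The listed genes called for RU486 were near the share of all probe sets, 2 of 28 at each time where 7.42% were called in RU PeF and 8.7% in RU UF. In RU PeF against control PeF 0 of 28 were called higher and 2 lower: Foxo3, with 638, 541 and 549 in RU PeF against 1184, 855 and 1004 in control PeF (-0.80, limma adjusted p = 0.00147), and Rps6kb1, the S6 kinase, with 79.5, 107.5 and 72.8 against 176, 143 and 163 (-0.88, limma adjusted p = 0.0163). Neither was called with median scaling (-0.48, adjusted p = 0.177, and -0.55, adjusted p = 0.199), where Stc1 was called higher (1.56, adjusted p = 0.0296), and the call of Rps6kb1 was also lost without RU PeF replicate 1 (adjusted p = 0.057) or 3 (0.0823). Array quality weights gave 2 higher and 5 lower, where 9.14% and 10.1% of all probe sets were called. Leaving out the 3 dimmest arrays gave 3 higher and 4 lower, where 5.72% and 6.66% of all probe sets were called. In RU UF against control PoF 1 was called higher, Pik3ca (0.43, limma adjusted p = 0.0436), and 1 lower, Stc1. The call of Pik3ca was lost without any 1 of the 6 samples (adjusted p of 0.0803 to 0.136), without the filter (0.0701), with the replicate block (0.0612) and with median scaling (0.532). Stc1, a secreted glycoprotein that blocks pappalysins, had 136, 74.6 and 79.4 in RU UF, against 752, 519 and 475 in control PoF, a 5.98-fold difference (limma adjusted p = 0.00142). Its signals in IM UF were 331, 349 and 225, between the other 2 groups, and the difference from control PoF was not called (-0.94, limma adjusted p = 0.721). In RU PeF it had 1320, 942 and 392, against 205, 242 and 771 in control PeF, an overlap with the dim replicate 3 as the highest control (1.21, limma adjusted p = 0.113). The difference of its RU486 effects between the times was -3.79 ± 0.64 (SE, limma adjusted p = 0.00275). No listed gene was called for indomethacin against control at either time. The median of the 28 genes was -0.12 in RU PeF and -0.07 in RU UF against control, where all genes had 0.05 and -0.04.

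**Figure D5:**
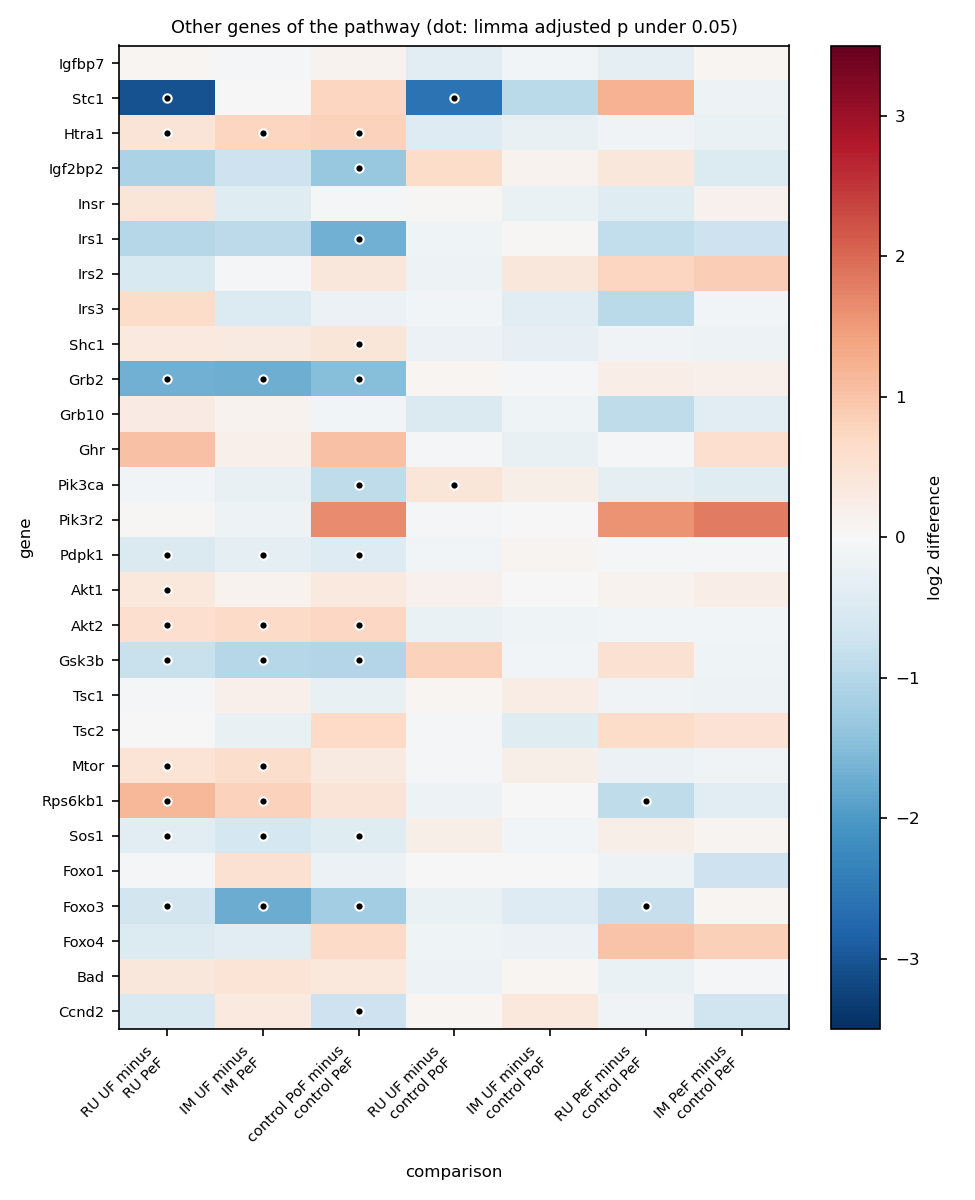
Log2 differences of the 28 tested genes of the pathway list in 7 comparisons, as colours from blue (lower in the first-named group) to red (higher), with a dot where limma's adjusted p was under 0.05. Grb2 and Foxo3 are blue with a dot in the 3 comparisons of times on the left, and Stc1 is dark blue with a dot in both comparisons of RU UF.

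For each member called in at least 1 comparison of groups, the 3 genes of most similar pattern were taken by Pearson's r over the 18 samples among 10390 genes. These correlations are a description, since the samples share groups, arrays and scaling. For Igf2r they were Pon2, a paraoxonase (r = 0.981), Nfe2l2, a transcription factor of the oxidative stress response (0.974), and Grcc10 (0.973). For Igf1 they were Bcor, a transcriptional corepressor (0.962), Cfl2, a cofilin (0.938), and Spire1, an actin nucleator (0.926). For Igfbp2 they were Svs5 (0.958), Esm1, a proteoglycan known from endothelium (0.953), and Tfpi2, a protease inhibitor (0.943). For Igfbp6 they were Vcl, the focal adhesion protein vinculin (0.899), the stromal marker Pdgfra (0.895) and Tmem171 (0.885). Between the members themselves, Igf2r ran opposite to Igf1 (r = -0.873) and to Igfbp2 (r = -0.864), and Igf1 ran with Igfbp2 (r = 0.732). All of these correlations take the representative probe set of each gene. The other Igf1 probe sets had other time courses in control and indomethacin follicles.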

How the data were processed

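Total RNA of laser-microdissected rat follicles was labelled with biotin and hybridized, 1 array for each sample (per the labels). The deposited values are intensity on a linear scale with a floor of 1, at which 7.04% to 25.1% of an array's probe sets stood. Per the submitters' processing notes MAS5 was used, with version and scaling not given in the sources used here. Because array medians differed, the 31042 probe sets without the 57 controls were quantile normalized (limma 3.58.1, R 4.3.3) and taken as log2 after adding 2.79, the 20th percentile of all values. The test took the 18155 probe sets that exceeded the array's own median on 3 or more of the 18 arrays. Background was the brightest of 27 unspiked control probe sets on each array. Symbols came from the platform's annotation, brought up to date through the gene ID: 20826 probe sets had 1 symbol, 436 several and 9780 none.

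limma was fitted with 1 mean per group over all 18 samples, a variance trend and 12 residual degrees of freedom, with Benjamini-Hochberg adjustment over all probe sets within each of 9 comparisons of groups and 2 differences of drug effects. With 3 samples a group, the smallest two-sided p of an exact permutation test is 0.1, so it was not used. The number of arrays limits the precision.

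The members and lists were chosen with earlier results of these data known. All members were named. The pathway genes named with values were those called in a comparison with an untreated group, at most the 5 with the smallest adjusted p in each. Other genes named are the 3 most like each called member and cell type markers moving with a result. Replicate numbers were tested as pairs: same-numbered samples of different groups had correlations of their deviations between -0.304 and 0.118, and 1 of 45 was over 0.1, so they were treated as sharing only a number. Promoters are RefSeq sequences of GRCr8, and all 9 members with a probe set had one. Alternatives were the deposited signals, median scaling, 2 other pseudocounts, no filter, only the groups compared, a replicate block, array quality weights, leaving out the 3 dimmest arrays or each replicate in turn, and the members' other probe sets. Plots used Python 3.11.15 with matplotlib 3.10.9.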

Additional observations from a re-analysis of the deposited data

Results flagged for a closer look

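The difference of RU486 from control was not the same at the 2 times for Igf1 and Igf2r, by the test of the difference itself in limma (effect at 10:00 of estrus minus effect at 22:00 of proestrus, log2). For Igf1 it was -2.22 at the representative probe set, -3.24 at the dimmest probe set and -1.79 at the second by brightness, with adjusted p of 0.00109, 0.0127 and 0.0169. Igf1 at its dimmest probe set was at background in all RU UF samples, and the value moved to -2.39 without the dim control PeF replicate 3. For Igf2r it was 1.18 at the representative probe set and 0.869 at the second, with adjusted p of 0.0143 and 0.0452. Over all probe sets 4.02% were called in this test. No group had more than 3 samples, so no sample was tested as an outlier.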

How the results depend on the processing

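Calls of members and of pathway genes moved by over 1.5 times under these settings, counting members of 8 and pathway genes of 28. With the signals as deposited, members called were 1 in control PoF against control PeF (4 in the reported setting) and 0 in RU PeF against control PeF, RU UF against control PoF, IM UF against IM PeF, RU PeF against IM PeF, RU UF against IM UF and the difference of RU486 effects (2 each, 3 in IM UF against IM PeF), and pathway genes 0 in RU PeF and 1 in RU UF against control (2 each). The share of all probe sets called with the deposited signals was 30.8% in control PoF against control PeF and 3.35% in IM UF against IM PeF. It was 0.121% in RU PeF and 0.832% in RU UF against control. Against indomethacin it was 0.226% in RU PeF and 0.176% in RU UF, and 0.452% in the difference of RU486 effects. Median scaling gave 2 members in control PoF against control PeF and 1 each in RU UF against IM UF and the difference of RU486 effects, and 1 pathway gene each in RU PeF (higher) and RU UF (lower) against control. The shares of all probe sets were then 32.2%, 3.06%, 1.83%, 4.89% and 4.33%, in the same order. Fitting only the groups compared gave 4 members in RU UF against control PoF, 1 pathway gene in RU PeF and 4 in RU UF. Of all probe sets 17.2% were then called in RU UF and 1.53% in RU PeF against control. Array quality weights gave 2 members and 4 pathway genes in IM PeF against control PeF (0 in the reported setting), 5 members and 5 pathway genes in RU UF, and 7 pathway genes in RU PeF. With these weights 12.9% of all probe sets were called in IM PeF, 20.3% in RU UF and 19.2% in RU PeF against control. Without the 3 dimmest arrays RU UF had 4 members and 4 pathway genes, and RU PeF 7 pathway genes, where 17.1% and 12.4% of all probe sets were called. Without the filter RU UF had 1 pathway gene, where 3.99% of all probe sets were called. With the replicate number as a block RU UF had 1 pathway gene, where 7.61% of all probe sets were called, and 42 of the 43 member calls stood. The exception was the difference of RU486 effects of Igf2r at its second probe set. Leaving out 1 sample gave 1 to 2 members in RU UF against control PoF, RU PeF against IM PeF and RU UF against IM UF, and 1 to 5 pathway genes in RU PeF and 1 in RU UF against control.

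Values that turned sign were Igf1 in control PoF against control PeF, at 0.781 with the deposited signals and 1.12 and 0.0983 at its other probe sets, Igfbp6 there at 0.763 with the deposited signals, Igf1 in IM UF against IM PeF at 0.291 and 0.87 at its other probe sets, and the difference of RU486 effects of Igf2r, at -0.475 and -0.703 with the deposited signals. With the deposited signals Foxo3 was also at 0.278, Pik3ca at 0.598 and Pdpk1 at 0.992 in control PoF against control PeF, Foxo3 at 0.104 in RU PeF and Pik3ca at -0.309 in RU UF against control. The deposited arrays differed in median signal, from 4.4 to 27.4, and in the share of probe sets at the floor, from 7.04% to 25.1%. The cause of the changes under any setting was not tested. Of the 43 member calls, 9 held with the deposited signals, 35 with median scaling, 42 with a pseudocount of 1, 43 with one at the median, 41 without the filter, 40 with only the groups compared, 43 with quality weights and 42 without the 3 dimmest arrays. Signals near background limit Igf2, Igfbp3 and the dimmest Igf1 probe set.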
